A study of Mus musculus with 6 samples.

Results

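The 9 genes described here encode cell surface receptors that set the tone of the airways and of the vessels around them. They are the β-adrenergic receptors Adrb1 and Adrb3, the muscarinic acetylcholine receptors Chrm1, Chrm2 and Chrm3, the histamine receptor Hrh1, the cysteinyl leukotriene receptor Cysltr1, and the prostaglandin E2 receptors Ptger2 and Ptger4. The genes were picked by symbol from a list of 9. Each of the 9 symbols matched exactly 1 of the 41388 genes in the table, and all 9 passed the filter on low counts. None of the 9 is an ion channel, so channels are described only in a separate list of related genes.

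Lung RNA was sequenced from adult mice with a deletion in Zpbp2 (KO) and from WT mice, and the question here was whether the lungs of the genotypes differed in the RNA of these receptors. The KO mice belonged to the B6.129S7-Zpbp2tmZuk/Mmjax strain, whose germline lacks exons 1 to 3 of Zpbp2 in every cell type, on an allele that by its name came from 129S7 and was carried on C57BL/6J. The WT mice were C57BL/6J animals of the same colony and had no engineered allele. Both genotypes were kept in a cycle of equal light and dark, received no treatment, and were sampled at zeitgeber time 7 (ZT7, 7 h after lights on). Each genotype had 3 libraries, named WT1, WT2 and WT3 or KO1, KO2 and KO3, and each was labelled as its own mouse. The sex of the mice was not given in the labels.

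Airway smooth muscle contracts when receptors coupled to the G protein Gq raise calcium inside the cell, and it relaxes when receptors coupled to Gs raise cyclic AMP. Acetylcholine from parasympathetic nerves, histamine from mast cells and leukotrienes act on the contracting side. Catecholamines and prostaglandin E2 act largely on the relaxing side, and the same receptors also stand on cardiac muscle, fat cells, glands, nerves and immune cells, all of which can be present in a piece of lung. In bulk RNA, fewer cells of a type and less RNA per cell cannot be told apart.

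Total counts ranged from 59134950 to 71354388 per library. KO2 and KO3 differed from each other by close to counting noise, with a ratio to that noise of 1.71 to 1.93 at every count level, where the other pairs of a genotype reached 9.32 to 21 at high counts. These 2 libraries were therefore counted as 1 sample, which gives n = 3 for WT and n = 2 for KO, and the fit with all 6 libraries kept separate is given beside it. WT3 and KO1 stood apart from the other libraries through squamous epithelium transcripts, whose 14 marker genes summed to 5002 and 9551 CPM against 42.0 to 49.2 CPM elsewhere. CPM is a count per 1e+06 counts of the scaled library size. The counts of Zpbp2 itself were 20, 15 and 7 for WT and 1, 0 and 0 for KO (adjusted p = 0.0653, edgeR), so its level followed the labels. Markers of alveolar type 2 cells, which define lung tissue, summed to between 21266 and 31739 CPM. With edgeR's quasi-likelihood test 426 of 18660 genes passed an adjusted p of 0.05 and are said to be called, but leaving out WT1, WT2 or WT3 left 0 calls in each case, and leaving out KO1 left 17.

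None of the 9 receptors was called in that fit (0 of 9, against 2.28% of all tested genes). At an unadjusted p up to 0.05, 3 of the 9 were lower in KO, against 13.4% of tested genes, and these were Adrb3, Chrm2 and Chrm3. No member was higher in KO at that limit, against 13.9% of tested genes. The same 3 genes were the ones called when all 6 libraries were kept separate (3 of 9, against 18.9% of genes) and with DESeq2 (3 of 9, against 22.9% of genes). By position alone, all KO libraries lay below all WT libraries for 5 receptors, Adrb3, Chrm1, Chrm2, Chrm3 and Cysltr1, a pattern held by 20.9% of all genes. All KO libraries lay above all WT libraries for 1 receptor, Ptger2, against 20.0% of all genes, and the genotypes overlapped for the other 3, Adrb1, Hrh1 and Ptger4. The fitted difference was below 0 for 7 of the 9 and above 0 for 2, while the median over all genes was 0.02 on the log2 scale.

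**Figure D1:**
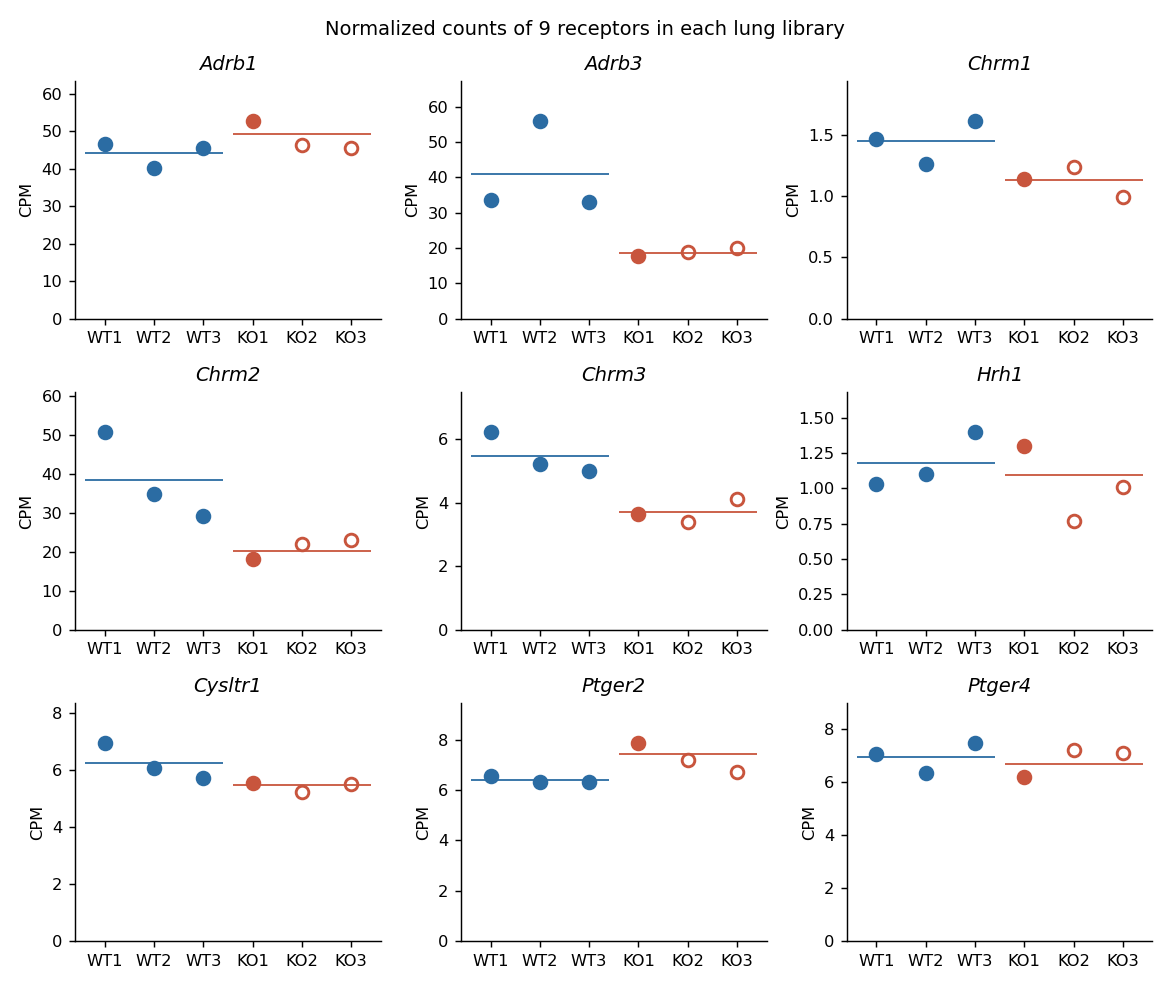
CPM (vertical axes from 0) of each receptor in each library (horizontal axes), with blue for WT and red for KO. Lines are group means, and open points are KO2 and KO3, which count as 1 sample. Adrb3, Chrm2 and Chrm3 lie lower in every KO library than in any WT library, while Adrb1, Hrh1 and Ptger4 overlap.

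Levels were compared between receptors per exonic length, as RPKM (CPM per kilobase of exons), since the transcripts differ in length. Adrb1 had a level of 13 ± 1.0 RPKM (SD, n = 3) and Adrb3 of 12.1 ± 3.90 RPKM, and their ranges overlapped. Chrm2 followed with a level of 6.34 ± 1.84 RPKM, below the range of Adrb3. A middle group held Ptger2 at 1.23 ± 0.0259 RPKM, Cysltr1 at 1.22 ± 0.124 RPKM, Ptger4 at 1.05 ± 0.0856 RPKM and Chrm3 at 0.877 ± 0.105 RPKM, with each neighbour overlapping the next. Hrh1 and Chrm1 were lowest, with levels of 0.265 ± 0.0442 and 0.223 ± 0.0276 RPKM, and their ranges overlapped too. The order of the 9 mean levels in KO was the same as in WT, from 14.6 RPKM for Adrb1 down to 0.174 RPKM for Chrm1. Even the lowest count of any member in any library, 48 for Hrh1 in KO2, was far above the 3 counts treated as the floor.

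**Figure D2:**
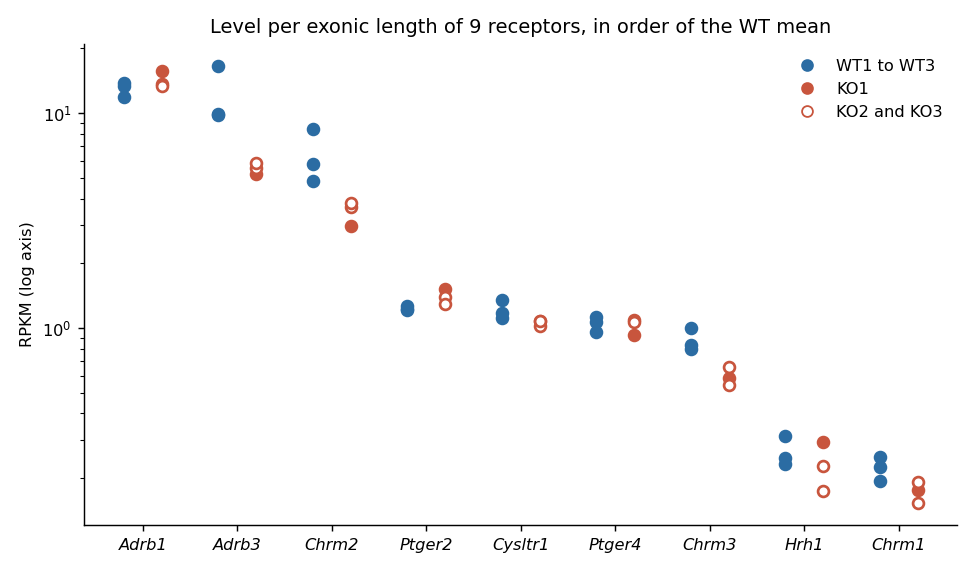
Level per exonic length (RPKM, logarithmic vertical axis) of each receptor (horizontal axis, in order of the WT mean) in the 3 WT libraries, in KO1, and in KO2 and KO3. Adrb1, Adrb3 and Chrm2 stand above the other receptors, and Hrh1 and Chrm1 are lowest in both genotypes.

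Promoter sequences were read for the members from RefSeq on GRCm38.p6, where 6 of the 9 genes matched. Adrb3, Chrm1 and Cysltr1 had no window and were not read. The windows of Chrm2 and Chrm3 are shown because, among the matched members, only these were lower in every KO library. That of Adrb1 is shown because it is the most abundant member and its genotypes overlapped. Each run is the 250 bases before the start annotated in RefSeq, 5′ to 3′ on the strand of the gene. For Chrm3 and Adrb1 this start differs from that in the gene coordinates given below, which come from GENCODE M21. Capitals mark matches on either strand to the GC box, searched as GGGCGG, or to the CCAAT box, searched as the letters of its name. No matches overlapped in these 3 windows. The Chrm2 window is chr6:36387834-36388083 on the plus strand, the Chrm3 window is chr13:10360804-10361053 on the minus strand, and the Adrb1 window is chr19:56721867-56722116 on the plus strand.
Chrm2: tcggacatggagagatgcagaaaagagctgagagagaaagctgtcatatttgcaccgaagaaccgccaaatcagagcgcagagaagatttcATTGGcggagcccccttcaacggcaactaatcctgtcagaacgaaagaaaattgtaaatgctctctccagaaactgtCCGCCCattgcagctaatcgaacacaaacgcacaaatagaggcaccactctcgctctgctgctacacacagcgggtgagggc
Chrm3: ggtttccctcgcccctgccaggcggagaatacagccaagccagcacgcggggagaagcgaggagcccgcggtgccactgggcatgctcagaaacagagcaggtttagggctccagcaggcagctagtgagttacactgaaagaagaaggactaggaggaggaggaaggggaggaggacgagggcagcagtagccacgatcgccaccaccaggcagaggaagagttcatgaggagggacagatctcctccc
Adrb1: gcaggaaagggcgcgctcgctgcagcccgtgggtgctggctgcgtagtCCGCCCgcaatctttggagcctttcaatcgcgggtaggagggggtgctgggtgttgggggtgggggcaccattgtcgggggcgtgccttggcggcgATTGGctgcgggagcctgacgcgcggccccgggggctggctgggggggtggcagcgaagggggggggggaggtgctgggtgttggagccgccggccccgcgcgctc
The Chrm2 window had 1 GC box, whose first printed base lay 82 bases before the start, and 1 CCAAT box 159 bases before it. The Adrb1 window had 1 of each, at 202 and 106 bases. The Chrm3 window had neither, although 32.7% of 32851 promoter windows of that length hold the GC box and 33.8% the CCAAT box. Neither the clock-related letters CACGTG (E-box, in 6.02% of windows) and TTATGTAA (D-box, 0.819%) nor TGACGTCA (cyclic AMP response element, 1.55%) occurred on either strand of any of the 9 windows of the members. The GC content of the shown windows was 50.0% for Chrm2, 61.2% for Chrm3 and 74.0% for Adrb1, against a median of 52.4% over all windows. These are matches of letters and say nothing on what binds there.

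The β-adrenergic receptors couple to Gs, and neither was called by edgeR's quasi-likelihood test with KO2 and KO3 as 1 sample. All KO libraries lay below all WT libraries for Adrb3, while the genotypes overlapped for Adrb1. Adrb1 (ENSMUSG00000035283, chr19:56722199-56733113) encodes the β1 receptor, best known for raising the rate and force of the heartbeat. Its level was 46.6, 40.2 and 45.4 CPM in WT1 to WT3 and 52.8, 46.4 and 45.4 CPM in KO1 to KO3. KO1 was the highest library and WT2 the lowest, and the other 4 lay together. WT averaged 44.1 ± 3.40 CPM (SD, n = 3) and KO 49.4 ± 4.91 CPM (n = 2). This gave a log2 fold change of 0.17 with an SE of 0.09 (adjusted p = 0.308), and its 95% interval corresponded to a KO level between 0.955 and 1.32 times that of WT. The value was 0.06 without KO1 and 0.10 without WT2.

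Adrb3 (ENSMUSG00000031489, chr8:27225776-27250616) encodes the β3 receptor, which drives lipolysis and heat production in fat cells. It was measured at 33.5, 56.0 and 32.9 CPM in WT and at 17.6, 18.8 and 19.9 CPM in KO. WT2 was far above every other library, the KO libraries lay close together, and the lowest WT library was still well above the highest KO library. WT averaged 40.8 ± 13.2 CPM and KO 18.5 ± 1.22 CPM, or 0.453 times the WT mean. The log2 fold change of Adrb3 was -1.14 (SE 0.27, 95% interval -1.84 to -0.44), and its adjusted p was 0.0806. With 6 libraries kept separate the adjusted p was 0.0202 and with DESeq2 it was 0.000242, within a range over 18 alternatives of 0.000242 to 0.738. Without WT2, the highest library, the log2 fold change was -0.84 with an adjusted p of 0.189. The level of Adrb3 relative to Adrb1, in RPKM, was 0.720, 1.40 and 0.726 in WT and 0.334, 0.407 and 0.438 in KO. In WT2 the β3 receptor thus exceeded the β1 receptor, and in each of the other 5 libraries it was the lower of the pair.

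Adipocyte transcripts moved with Adrb3. The 13 adipocyte markers summed to 1080, 1650 and 972 CPM in WT and to 224, 402 and 408 CPM in KO, highest in WT2 as Adrb3 was, and all 13 were lower in every KO library, against 20.9% of all genes. Of the 13, 3 were called lower by edgeR (2.28% of all genes were called) and 12 were called by DESeq2 (22.9%). The 2 most abundant of them were Cfd, which encodes the adipokine adipsin, and Fabp4, the fatty acid carrier of fat cells. Fabp4 had 222, 372 and 207 CPM in WT and 25.4, 68.2 and 68.8 CPM in KO (log2 fold change -2.50, SE 0.54, adjusted p = 0.0698). Per 1000 CPM of adipocyte markers, Adrb3 had 31.0, 33.9 and 33.9 CPM in WT and 78.5, 46.8 and 48.7 CPM in KO, so that on this scale every KO library was the higher. A further fit held the mean log2 CPM of the 13 adipocyte markers as a term (the adipocyte term). In it the log2 fold change of Adrb3 was 0.45 (SE 0.55, adjusted p = 0.738). No gene of the whole table was called by edgeR in that fit, while 2756 had an unadjusted p up to 0.05. The adipocyte term and the genotype separate the same samples, so their parts in the difference cannot be told apart.

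All 3 muscarinic receptors were lower in every KO library than in any WT library. Chrm2 (ENSMUSG00000045613, chr6:36388084-36528414) encodes the Gi-coupled M2 receptor, which lowers cyclic AMP in smooth muscle, slows the heart, and limits acetylcholine release from airway nerves. Its level was 50.8, 35.0 and 29.3 CPM in WT and 18.1, 22.1 and 23.1 CPM in KO. WT1 was highest by a wide margin, KO1 was lowest, and WT3 came nearest to the KO libraries. WT averaged 38.4 ± 11.1 CPM and KO 20.3 ± 3.21 CPM, or 0.530 times the WT mean. The log2 fold change of Chrm2 was -0.91 (SE 0.26, 95% interval -1.58 to -0.23) with an adjusted p of 0.111. It was called with 6 libraries kept separate (adjusted p = 0.0367) and with DESeq2 (adjusted p = 0.00346), within a range over the alternatives of 0.00346 to 0.887.

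Chrm3 (ENSMUSG00000046159, chr13:9875486-10360847) encodes the Gq-coupled M3 receptor, the main receptor through which acetylcholine contracts airway smooth muscle and drives gland secretion. It had 6.23, 5.21 and 5.0 CPM in WT and 3.64, 3.39 and 4.12 CPM in KO. As for Chrm2, WT1 was the highest library, and no KO library reached the lowest WT value. WT averaged 5.48 ± 0.656 CPM and KO 3.70 ± 0.0844 CPM, or 0.675 times the WT mean. For Chrm3 the fit gave a log2 fold change of -0.56 (SE 0.15, 95% interval -0.94 to -0.19), with an adjusted p of 0.0910. The adjusted p was 0.0341 with 6 libraries kept separate and 0.00535 with DESeq2, and over the alternatives it ranged from 0.00535 to 0.786.

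Chrm1 (ENSMUSG00000032773, chr19:8663789-8683587) encodes the Gq-coupled M1 receptor of neurons and glands. It was read from 58 to 107 counts per library and was the weakest of the 9 genes per length. Its level was 1.47, 1.26 and 1.62 CPM in WT and 1.14, 1.24 and 0.993 CPM in KO. The genotypes did not overlap, but WT2 and KO2 nearly touched. Chrm1 had a log2 fold change of -0.35 with an SE of 0.18 (adjusted p = 0.283), and its interval of 0.570 to 1.08 times the WT level included no difference.

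The balance among the muscarinic receptors differed little between the genotypes. Of the summed RPKM of Chrm1, Chrm2 and Chrm3, the share of Chrm2 was 87.3%, 84.9% and 82.2% in WT and 79.7%, 83.3% and 82.5% in KO, and the genotypes overlapped. Chrm3 made up 12.1% ± 1.62 of that sum in WT and 14.4% ± 1.58 in KO. Chrm2 was therefore the main muscarinic transcript of the lung in every library.

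**Figure D3:**
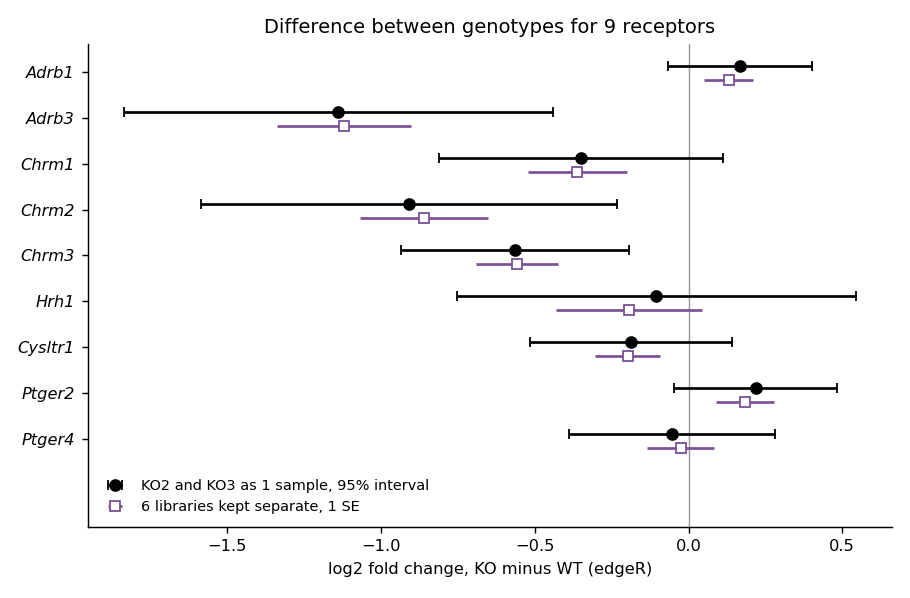
Fitted log2 fold change (horizontal axis, KO minus WT) of each receptor (vertical axis) by edgeR. Black points are the fit with KO2 and KO3 as 1 sample, with 95% intervals, and open squares are the fit with 6 separate libraries, with bars of 1 standard error. The intervals of Adrb3, Chrm2 and Chrm3 lie below 0, and those of the other 6 receptors include 0.

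Transcripts of cardiac muscle, a tissue that lines the pulmonary veins of mice, were also mostly lower in KO. The 14 cardiomyocyte markers summed to 8121, 3530 and 3342 CPM in WT and 2150, 1468 and 1485 CPM in KO, highest in WT1 as Chrm2 and Chrm3 were. Of these markers 11 were lower in every KO library, against 20.9% of all genes. With KO2 and KO3 as 1 sample edgeR called none, while 9 had an unadjusted p up to 0.05, all lower (against 13.4% of all genes). With 6 libraries kept separate it called 6 of 13, all lower (against 18.9%), and DESeq2 called 7 (against 22.9%). Their 2 most abundant genes were Myl7, the atrial myosin light chain, and Nppa, the atrial natriuretic peptide. Nppa had 1477, 145 and 322 CPM in WT and 22.4, 22.3 and 23.8 CPM in KO (log2 fold change -4.83, SE 1.21, adjusted p = 0.0867). Per 1000 CPM of cardiomyocyte markers, Chrm2 had 6.26, 9.90 and 8.77 CPM in WT and 8.40, 15.0 and 15.6 CPM in KO, and on this scale the genotypes overlapped. The part of cardiac muscle in the Chrm2 difference was not tested.

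Smooth muscle markers, unlike the muscarinic receptors, overlapped between the genotypes as a sum. The 10 smooth muscle markers, led by Acta2 and Tagln, which encode smooth muscle actin and the actin-binding protein transgelin, summed to 1539, 1106 and 1756 CPM in WT and 2036, 1271 and 1275 CPM in KO. Of the 10, edgeR called 0 with KO2 and KO3 as 1 sample (2.28% of all genes), where 1 had a lower level with an unadjusted p up to 0.05 (13.4%). With 6 libraries kept separate it called 1 lower (18.9%), and DESeq2 called 1 (22.9%). Acta2 itself differed by 0.07 on the log2 scale (SE 0.21, adjusted p = 0.859). Per 1000 CPM of these markers, Chrm3 had 4.05, 4.71 and 2.85 CPM in WT and 1.79, 2.67 and 3.24 CPM in KO, with WT3 inside the KO range. With WT3 and KO1 left out, a setting chosen after the data were seen, the log2 fold change was -1.21 for Adrb3 (adjusted p = 0.0203), -0.92 for Chrm2 (adjusted p = 0.0189) and -0.61 for Chrm3 (adjusted p = 0.0776). That setting leaves KO with 1 sample, the sum of KO2 and KO3, so its p-values assume that this lone sample varies as the WT samples do.

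**Figure D4:**
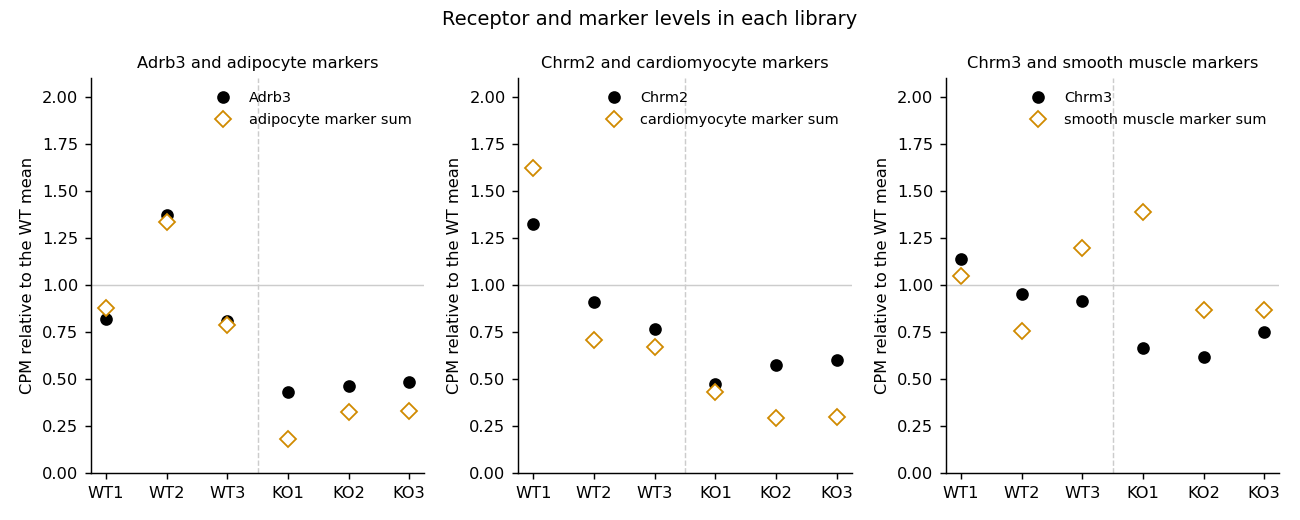
Adrb3, Chrm2 and Chrm3 (black points) beside the summed markers of adipocytes, cardiomyocytes and smooth muscle (open diamonds) in each library (horizontal axes), as CPM relative to the WT mean of each (vertical axes from 0). Adrb3 and the adipocyte sum peak in WT2, Chrm2 and the cardiomyocyte sum peak in WT1, and the smooth muscle sum is highest in KO1, where Chrm3 is low.

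Neither Hrh1 nor Cysltr1 passed the test in any of the 18 alternatives. Hrh1 (ENSMUSG00000053004, chr6:114397936-114483296) encodes the Gq-coupled H1 histamine receptor, which contracts airway smooth muscle and opens small vessels to leakage. It was read from 48 to 84 counts per library, at 1.03, 1.11 and 1.40 CPM in WT and 1.30, 0.772 and 1.01 CPM in KO. The highest library of each genotype, WT3 and KO1, was the one with squamous transcripts, and the genotypes overlapped. The log2 fold change of Hrh1 was -0.11 (SE 0.25, adjusted p = 0.826), with a wide interval of 0.593 to 1.46 times the WT level.

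Cysltr1 (ENSMUSG00000052821, chrX:106574346-106603679) encodes the cysteinyl leukotriene receptor that the asthma drug montelukast blocks. Its level was 6.96, 6.06 and 5.72 CPM in WT and 5.56, 5.23 and 5.53 CPM in KO. WT1 was highest, and WT3 lay just above KO1, so the groups were separate by a narrow gap. In the fit Cysltr1 differed by -0.19 on the log2 scale (SE 0.13, adjusted p = 0.409), with an interval of 0.699 to 1.10 times the WT level. Without WT1 the value was -0.10, and with an offset for length and GC content it was -0.03.

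Markers of mast cells, a source of histamine and leukotrienes, were mostly lower in KO. Of the 8 mast cell markers 7 were lower in every KO library, against 20.9% of all genes, and 3 were called lower, against 2.28% of all genes called in either direction. Their sum, which is mostly Kit, a growth factor receptor found also on other cells, was 241 to 271 CPM in WT and 228 to 233 CPM in KO. Cma1, the mast cell chymase, had 3.44, 5.20 and 3.79 CPM in WT and 1.45, 1.61 and 2.05 CPM in KO (log2 fold change -1.33, SE 0.25, adjusted p = 0.0578). Whether these markers bear on the level of Hrh1 or Cysltr1 was not tested.

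The prostaglandin E2 receptors, EP2 and EP4, both couple to Gs and raise cyclic AMP, and neither was called. Ptger2 (ENSMUSG00000037759, chr14:44988195-45003820) encodes EP2 and was the only member higher in every KO library than in any WT library. Its level was 6.56, 6.33 and 6.32 CPM in WT and 7.88, 7.20 and 6.73 CPM in KO. The WT libraries were nearly equal, and KO3 was only slightly above WT1. Its fitted log2 fold change was 0.22 (SE 0.10, adjusted p = 0.252), with an interval of 0.968 to 1.40 times the WT level, and it was 0.12 without KO1.

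Ptger4 (ENSMUSG00000039942, chr15:5206661-5244187) encodes EP4, a receptor through which prostaglandin E2 restrains immune cells. Its level was 7.05, 6.35 and 7.47 CPM in WT and 6.18, 7.20 and 7.10 CPM in KO. WT2 and KO1 were the lowest, and the other 4 libraries lay together regardless of genotype. Ptger4 had a fitted difference of -0.05 on the log2 scale (SE 0.13, adjusted p = 0.824), with an interval of 0.763 to 1.21 times the WT level. The ratio of Ptger4 to Ptger2 in RPKM was 0.849 ± 0.0706 in WT and 0.708 ± 0.135 in KO, and the libraries of the genotypes overlapped.

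Summed over the 9 receptors, WT libraries had 160, 157 and 135 CPM and KO libraries 114, 112 and 114 CPM. Without Adrb3 and Chrm2 the sums were 75.9, 66.5 and 73.0 CPM in WT and 78.6, 71.4 and 70.9 CPM in KO, and the genotypes overlapped. The difference in the sum was thus carried by these 2 genes, which had the highest RPKM among those lower in KO.

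Exons of 5 members overlap a gene on the other strand, and whether counting used the strand was not given in the sources used here. The partner of Chrm2, 9330158H04Rik, had 176 to 435 counts per library, far fewer than the 1137 to 3702 of Chrm2. Its CPM values were 5.97, 4.14 and 3.45 in WT and 2.80, 3.60 and 3.80 in KO, with WT1 highest and KO1 lowest as for Chrm2. Ttc33, which overlaps Ptger4, had 1321 to 1709 counts against 389 to 514 for the receptor, so the level of Ptger4 is uncertain. For Ptger2 and Chrm1 the measured partners, Gm17173 and Gm22820, had at most 45 and 3 counts, and a partner of Adrb3, Gm45470, was not analysed here.

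Among 126 other genes of airway tone, in 6 lists, 122 were tested and 5 were called by edgeR with KO2 and KO3 as 1 sample (1 higher and 4 lower in KO), against 2.28% of all genes. In the counts for each list, rose and fell refer to this fit. All KO libraries lay below all WT libraries for 48 of the 122 tested genes and above for 13, against 20.9% and 20.0% of all genes. With 6 libraries kept separate 28 of 121 were called (7 higher and 21 lower), against 18.9% of all genes, and DESeq2 called 34, against 22.9%. All 5 calls were lost when any 1 WT library or KO1 was left out, and without KO1 a different gene of the lists was called.

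Of the 11 genes that make, carry or remove acetylcholine, histamine and catecholamines, 10 were tested, 0 rose and 1 fell, while with 6 libraries kept separate 1 was called higher and 4 lower, and DESeq2 called 3. The shares of all genes in these fits were 2.28%, 18.9% and 22.9%. The gene that fell was Slc5a7, the choline transporter of cholinergic nerve endings, whose counts were 60, 60 and 38 for the WT libraries and 4, 6 and 2 for the KO libraries. Its log2 fold change was -3.52 (SE 0.29, adjusted p = 0.0446). The vesicular acetylcholine transporter Slc18a3, named after its values were seen, was read 29, 20 and 14 times in WT and 2, 1 and 0 times in KO (adjusted p = 0.0501). Chat, the enzyme that makes acetylcholine, was also named after its values were seen. Its counts were 20, 8 and 2 in WT and 2, 0 and 1 in KO, so WT3 and KO1 had the same count. The KO counts of both genes lay below the 3 counts treated as the floor. The 10 markers of peripheral neurons summed to 77.0 to 79.3 CPM in WT and 81.6 to 101 CPM in KO, and this sum was mostly Stmn2 and Gap43, which mark neuronal growth. The median log2 fold change of the 9 neuron markers tested was -0.81, with 6 below 0. None of them was called by edgeR with KO2 and KO3 as 1 sample, 2 were higher and 4 lower with an unadjusted p up to 0.05 (13.9% and 13.4% of all genes). With 6 libraries kept separate 1 of 8 was called higher and 2 lower (18.9%), and DESeq2 called 4 (22.9%). By position 3 of the 9 tested were lower in every KO library and 2 were higher, against 20.9% and 20.0% of all genes. Maob, which degrades monoamines, differed by -0.23 on the log2 scale (SE 0.08, adjusted p = 0.140).

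Of the 38 other receptors of airway and vessel tone, 36 were tested, 0 rose and 1 fell, while with 6 libraries kept separate 1 of 35 was called higher and 3 lower, and DESeq2 called 8, against 2.28%, 18.9% and 22.9% of all genes. The gene that fell was Adra1a, the α1A-adrenergic receptor, which contracts vessels through Gq. Adra1a had 29.3, 27.6 and 27.4 CPM in WT and 17.8, 16.2 and 15.1 CPM in KO, a wide gap, and its log2 fold change of -0.74 had an SE of 0.08 (adjusted p = 0.0446). Calcrl and Ramp2, which together form the adrenomedullin receptor of vessels, were the most abundant of this list, and differed on the log2 scale by -0.20 (SE 0.07, adjusted p = 0.159) and 0.51 (SE 0.10, adjusted p = 0.0580). Over the 18 alternatives the value ranged from -0.255 to 0.146 for Calcrl and from 0.00112 to 0.633 for Ramp2.

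Downstream of the receptors, 1 of the 23 genes of Gs and cyclic AMP fell and 0 rose, while with 6 libraries kept separate 1 was called higher and 7 lower, and DESeq2 called 10, where 2.28%, 18.9% and 22.9% of all genes were called. By position 14 were lower in every KO library, against 20.9% of all genes. The gene that fell was Adcy9, an adenylyl cyclase, with 37.8, 39.6 and 41.2 CPM in WT and 26.3, 30.5 and 27.2 CPM in KO (log2 fold change -0.51, SE 0.07, adjusted p = 0.0474). Gnas, which encodes the Gs α subunit, differed by 0.09 on the log2 scale (SE 0.08, adjusted p = 0.527), and Prkar1a, a regulatory subunit of protein kinase A, by 0.07 (SE 0.05, adjusted p = 0.473). None of the 18 genes of Gq, Gi and G12/13 signalling was called by edgeR with KO2 and KO3 as 1 sample, with 3 higher and 4 lower when the unadjusted p limit was 0.05 (13.9% and 13.4% of all genes). Keeping 6 libraries separate gave 2 calls higher and 2 lower (18.9% of all genes), and DESeq2 called 7 (22.9%). The smallest p of that list belonged to Gnao1, a Gi-class α subunit, at -0.62 on the log2 scale (SE 0.10, adjusted p = 0.0510), while the abundant Gnai2 and Arhgef1 had values of 0.16 (SE 0.08) and 0.08 (SE 0.07). None of the 11 receptor kinases, arrestins and RGS proteins was called by edgeR's quasi-likelihood test with KO2 and KO3 as 1 sample or by DESeq2, 1 was called higher with 6 libraries kept separate (18.9% of all genes called), and 2 were higher with an unadjusted p up to 0.05 (13.9%). The smallest p there was that of Rgs2, a brake on Gq signalling, at 0.83 (SE 0.29, adjusted p = 0.154). The abundant kinase Adrbk1 and arrestin Arrb1, which switch off agonist-bound receptors, differed by 0.08 (SE 0.08) and -0.18 (SE 0.08) on the log2 scale.

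Of the 25 ion channels of smooth muscle tone, 24 were tested, 1 rose and 1 fell, while with 6 libraries kept separate 1 was called higher and 5 lower, and DESeq2 called 6. Of all genes 2.28%, 18.9% and 22.9% were called. Orai1, the pore of store-operated calcium entry, rose from 24.6, 25.8 and 27.1 CPM in WT to 37.0, 33.4 and 35.0 CPM in KO (log2 fold change 0.47, SE 0.07, adjusted p = 0.0474). Its value was 0.27 with the adipocyte term and 0.31 with the length and GC offset. Cacna1d, an L-type calcium channel, fell from 72.4, 75.4 and 76.8 CPM in WT to 59.0, 53.7 and 54.5 CPM in KO (log2 fold change -0.40, SE 0.06, adjusted p = 0.0474), and its value was -0.17 with the length and GC offset. Both overlap a gene on the other strand, Gm2479 and Chdh. Ano1, the calcium-activated chloride channel of airway smooth muscle and the most abundant of the list, differed by -0.23 on the log2 scale (SE 0.14, adjusted p = 0.366).

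**Figure D5:**
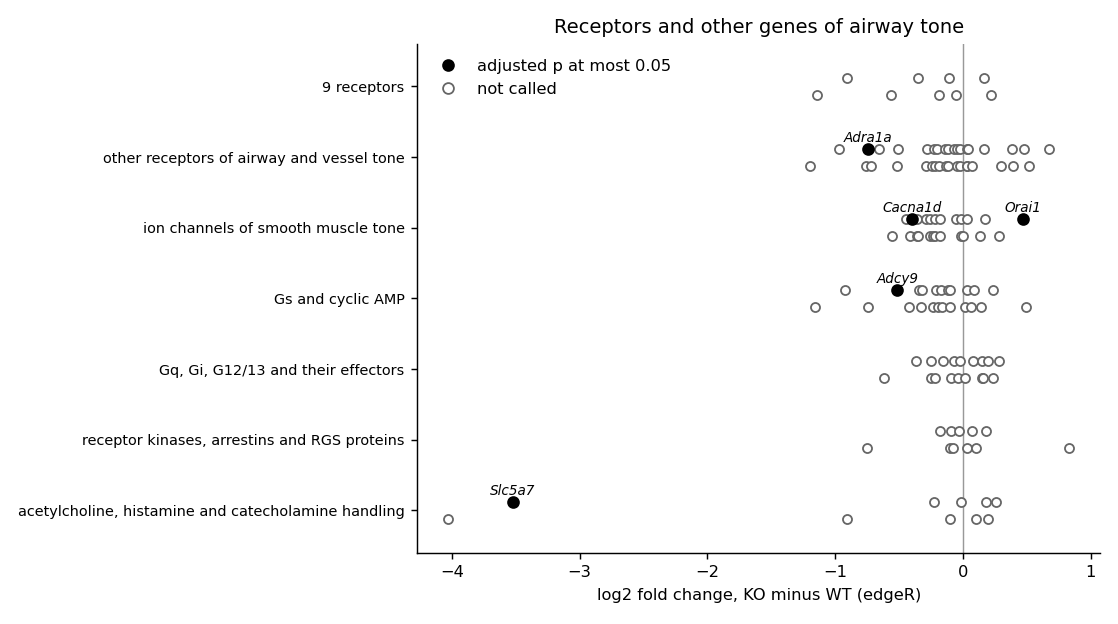
Fitted log2 fold change (horizontal axis, KO minus WT, edgeR) of the 9 receptors and of the tested genes in 6 lists of airway tone (vertical axis). Filled points are called genes, with an adjusted p up to 0.05, and open points are the rest. In the quasi-likelihood fit with KO2 and KO3 summed, no receptor among the 9 was called, and 5 genes of the lists were.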

How the data were processed

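RNA from lungs gave 6 libraries at ZT7, 3 of each genotype. The authors trimmed and filtered reads, aligned them to GRCm38 and counted them per gene within GenPipes, and the deposited values are raw counts per gene and library with no normalization. The submitters' processing notes name Trimmomatic 0.36, STAR 2.5.3a, Picard 2.9.0 and HTSeq 0.6.0. The annotation release, and whether strand was used in counting, were not given in the sources used here.

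Counts were fitted in R 4.3.3 with edgeR 4.0.16: filterByExpr, TMM scaling and the two-sided quasi-likelihood test of KO against WT, with Benjamini-Hochberg adjustment over all tested genes and calls up to an adjusted p of 0.05. The counts of KO2 and KO3 were summed, and their mean CPM is 1 value in each mean ± SD. Alternatives used DESeq2 1.42.0 and the settings listed in the closing section. Standard errors came from each estimate and its quasi-likelihood F value. RPKM is CPM per kilobase of union exon length in GENCODE M21 on GRCm38, which gave the coordinates for 40340 of 41388 genes. All 6 columns of counts were used (0 were not), and 0 rows named no gene. At these depths 3 counts correspond to 0.0412 to 0.0513 CPM, for counting error only. The quasi-likelihood fit was also run on simulated counts with known folds, the same dispersion for every gene and independent samples. Those counts did not copy the squamous transcripts shared by WT3 and KO1, so that run does not show how the fit behaves with them.

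The members and lists were chosen with earlier results of these data known. Named genes are the 9 members, and in each list of related genes those called, the 2 with the highest mean level per length and that with the smallest p. In each marker list they are the 2 most abundant. One gene that this rule names is not reported here. The labels give separate mice but no other detail, so p-values measure the spread between these samples, which for KO2 and KO3 may be technical.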

Additional observations from a re-analysis of the deposited data

How the results depend on the processing

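Over 18 alternatives the 9 receptors gave 162 fitted values, of which 154 had the same direction as reported and 8 reversed. Chrm1, Chrm2, Chrm3 and Cysltr1 kept their direction in each of the 18. With the adipocyte term, the log2 fold change of Adrb1 became -0.40, that of Adrb3 0.45 and that of Ptger2 -0.0196. In the same fit Hrh1 moved to -1.28, Chrm1 to -0.91 and Chrm2 to -0.35. Hrh1 became 0.143 without KO2 and KO3, and ranged from -0.408 to 0.0290 when 1 library at a time was left out, reversing without WT3. Ptger4 became 0.0836 with an offset for length and GC content and 0.0943 without WT3 and KO1, and ranged from -0.121 to 0.0407 when 1 library at a time was left out, reversing without KO1. For these reversals the cause was not tested.

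The number of genes called was 426, and that of receptors and of the other airway tone genes 0 and 5. In the same order these were 3402, 3 and 28 with 6 libraries kept separate, 3919, 3 and 34 with DESeq2, 2419, 2 and 26 with a squamous epithelium term, 2256, 2 and 29 without WT3 and KO1 (chosen after seeing the data, with 1 KO sample), 216, 1 and 3 with edgeR's exact test, and 0, 0 and 0 with the adipocyte term, with the length and GC offset and without KO2 and KO3 together. At least 10 counts in every library gave 937, 0 and 7, and no filter on low counts gave 412, 0 and 7. Leaving out 1 library at a time gave 0 to 418 genes, 0 receptors and 0 to 5 other genes, with 0 genes called without WT1, WT2 or WT3. Scaling by library size alone moved the higher share of called genes from 60.3% to 38.2%. The cause of these differences was not tested, except that fewer samples were fitted where a WT library, KO1, or KO2 and KO3 together were left out.

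Adrb3 was called in 6 of the 18 alternatives, Chrm2 in 4 and Chrm3 in 2. A replicate block, which treats same-numbered libraries as paired, gave 1157, 1 and 12 calls, and the receptor was Adrb3 (log2 fold change -1.07, adjusted p = 0.0483). Same-numbered libraries correlated at -0.665, 0.691 and -0.777 in their deviations from the group means. WT3 and KO1, which share the squamous transcripts, correlated at 0.845, so these values cannot decide whether the numbers pair the mice. Depth limits Hrh1 and Chrm1 most, since both have at most 107 counts per library.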

Other observations

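The remaining marker sums were, in CPM and as ranges over the libraries, 3765 to 3935 in WT and 4714 to 5062 in KO for alveolar type 1 cells, 281 to 340 in WT and 249 to 277 in KO for macrophages, and 165 to 181 in WT and 146 to 152 in KO for lymphocytes. Alveolar type 2 markers summed to 21266 to 22139 CPM in WT and 29932 to 31739 CPM in KO, with 3 of 8 called higher (2.28% of all genes were called by edgeR in either direction, and 22.9% by DESeq2), among them Sftpc, which encodes surfactant protein C (log2 fold change 0.62, SE 0.05, adjusted p = 0.0446). Of the 6 alveolar type 1 markers 3 were called higher, among them Ager (log2 fold change 0.45, SE 0.05, adjusted p = 0.0446) and Hopx (0.42, SE 0.06, adjusted p = 0.0466). Of the 7 macrophage markers 1 was called lower, and of the 6 lymphocyte markers 0 were called by edgeR with KO2 and KO3 as 1 sample, with 1 higher and 2 lower when the unadjusted p limit was 0.05 (13.9% and 13.4% of all genes). Keeping 6 libraries separate gave 2 lymphocyte markers called lower (18.9%), and DESeq2 called 2. Krt13 and Krt4, the most abundant squamous markers, reached 1857 and 1988 CPM in WT3 and 3580 and 3695 CPM in KO1, and stayed at or below 0.976 CPM in the other 4 libraries.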
